A study of Sus scrofa with 12 samples.

Results

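The transcription machinery of the porcine oocyte was followed through 95 genes of the 31908 Ensembl identifiers listed in each library. They were taken by symbol alone, as every pig gene whose symbol starts with POLR1, POLR2 or POLR3 (subunits of RNA polymerases I, II and III), with MED and a digit (subunits of Mediator), with TAF and a digit (mostly subunits of TFIID) or with GTF2 or GTF3 (general transcription factors of RNA polymerases II and III). Symbols of 11 further subunits (POLR2J, POLR2L, POLR3B, POLR3G, POLR3GL, TAF1, MED29, GTF2E1, GTF2H2, GTF2H4 and GTF3C5) had no matching identifier and were not analysed here. The libraries were made from oocytes of prepubertal gilts, whose ovaries came from a slaughterhouse. Cumulus-oocyte complexes from antral follicles were pooled, matured in a TCM199-based medium with porcine follicular fluid, EGF, PMSG and HCG, and stripped of cumulus cells with hyaluronidase at 0h (germinal vesicle), 22h (before metaphase I) or 46h (metaphase II). For these stages the paper cites an earlier study, in which most but not all oocytes had reached the stage, the fewest at metaphase II. That study used slightly different middle and last times. No selection of oocytes by stage is described, so a library may hold oocytes of another stage. Each stage had 4 libraries of 20 oocytes, and the labels name no genetic change and no treatment besides the time in maturation medium. Because the complexes were pooled and nothing says that the libraries came from separate animals, the p-values measure the spread between these samples, which may be technical. The design text gives the middle time as 24h, whereas the sample labels and the methods give 22h, which is used here. The sample titles speak of ovarian cells, whereas the cell type label and the methods name oocytes.

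RNA polymerase I makes ribosomal RNA, RNA polymerase II makes mRNA, and RNA polymerase III makes tRNA and 5S rRNA, and the enzymes have some subunits in common. At a Pol II promoter, TFIID recognises the core promoter, TFIIA, TFIIB, TFIIE, TFIIF and TFIIH build the initiation complex, and Mediator carries the signal of bound activators to the polymerase. Growing oocytes transcribe actively, whereas the fully grown oocyte falls largely silent before meiosis resumes and matures on stored mRNA. The values here describe transcript levels and not the activity of the complexes, and whether new transcription added to them was not tested. The cDNA was started from the poly(A) tail with an oligo-dT primer, so that less mRNA and mRNA with a tail too short for the primer cannot be told apart, nor can a lower amount in every oocyte and its loss from some of the 20.

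The values are FPKM, that is, fragments counted per length of transcript and per depth of the library, computed by the authors with RSEM. The number of reads behind a library is unknown, so no counting interval is given and the spread over 4 libraries is the measure of precision. Total FPKM ranged from 697468 to 802184 over the 12 libraries. The share of the 13 mitochondrially encoded protein genes was 1.79 to 3.76% in the 0h libraries, 8.06 to 12% in those of 22h and 12.8 to 16.7% in those of 46h, and since FPKM is relative to the library, these shares enter every level given here. Replicates 2 and 4 of 0h had the lowest correlation between libraries of a stage (r of 0.934 across genes). Replicate 2 had the lowest value of the 0h libraries for 45.1% of the members tested (42.1% of all genes tested). Replicate 4 had the most members at 1 FPKM or more (74) and the highest value of the 0h libraries for 64.8% of the members tested (52.7% of all genes tested). Of 12 oocyte markers, 10 had an identifier, and their summed level was 13791 to 19318 FPKM in the 0h libraries, 16433 to 23368 in those of 22h and 4008 to 7478 in those of 46h. Of 14 cumulus and granulosa cell markers, 11 had an identifier. Their sum was 14.0 to 25.6 FPKM over all libraries, nearly all of it from STAR, FST and KITLG, while INHA was at 0 in every library and FSHR, AMH, HAS2 and CYP11A1 were at most 0.31 FPKM. Of 5 endothelial and stromal markers, 4 had an identifier. Their sum, mostly PECAM1, was 7.22 to 23 FPKM at 0h and 22h and 22.9 to 25.6 at 46h, with COL1A1 at 0, and its part in the results was not tested.

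Of the 95 members, 71 averaged 1 FPKM or more over the 12 libraries and were tested with limma among 7013 genes, and the other 24 are given further on. A gene passed with an adjusted p under 0.05 and a fold change over 1.5. At 22h against 0h, 4 of the 71 members were higher and 18 lower (5.63% and 25.4%), where 26.7% of all genes tested were called, 7.84% as higher and 18.9% as lower. The 22h libraries all lay above those of 0h for 7 members and all below for 17 (10.3% and 18.6% of all genes). At 46h against 22h, 11 were higher and 24 lower (15.5% and 33.8%), against 9.87% and 32.6% of all genes, 42.4% in all, and the libraries lay all above for 11 members and all below for 26 (13.2% and 35.4% of all genes). At 46h against 0h, 13 were higher and 30 lower (18.3% and 42.3%), against 16.8% and 39.1% of all genes, 55.9% in all, so that as a class the members passed at about the rate of the other genes. Their median change was -0.28 on the log2 scale and that of all genes -0.25. The libraries of 46h all lay above those of 0h for 16 members and all below for 33 (18.2% and 39.2% of all genes). Without replicate 4 of 0h, 42 of these 43 calls were kept and TAF8 was lost, while GTF2A1, GTF2H3 and MED1 also passed as higher. At 22h against 0h, 18 of 22 calls were kept without it, and MED1 (0.94 in place of 0.58), POLR1G (0.77 in place of 0.44), MED15 and TAF5 also passed as higher.

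The balance of higher and lower members moved with the scaling. Of the members called at 46h against 0h, the higher ones made up 30.2% with FPKM as deposited, 42.6% with median-of-ratios scaling, and 54.7% when libraries were brought to equal quantiles, while the median of all genes moved from -0.25 to 0.003 and 0.37. For 46h against 22h this share was 31.4% and, at equal quantiles, 50%, and for 22h against 0h it was 18.2% and 32%. Summed over all members, the level was 4031 ± 89.3 FPKM at 0h, 4096 ± 244 at 22h and 4316 ± 201 at 46h (SD, n = 4 each), between 0.5 and 0.583% of each library. Behind this nearly level sum, single members fell by over 4 log2 units or rose by more than 1. By role, the median at 46h against 0h was negative under each of the 5 scalings for the subunits shared by all 3 polymerases (-2.86 to -1.84), for Pol II (-1.78 to -0.77), Pol III (-1.60 to -0.59), TFIIA, B, E and F (-1 to -0.35) and TFIIIA and TFIIIC (-1.75 to -0.84). That of the Pol I subunits was -0.46 as deposited and turned to 0.19 with quantile normalization. On the log2(FPKM + 1) scale the steepest falls were those of MED8 of the Mediator head (-5.37), POLR2G of Pol II (-4.62) and GTF2F1 of TFIIF (-4.10). GTF2H5 of TFIIH (-3.87) and POLR2F of the shared subunits (-3.82) came next. Of the 10 TFIID TAFs tested 5 were higher and 2 lower at 46h against 0h (16.8% and 39.1% of all genes).

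**Figure D1:**
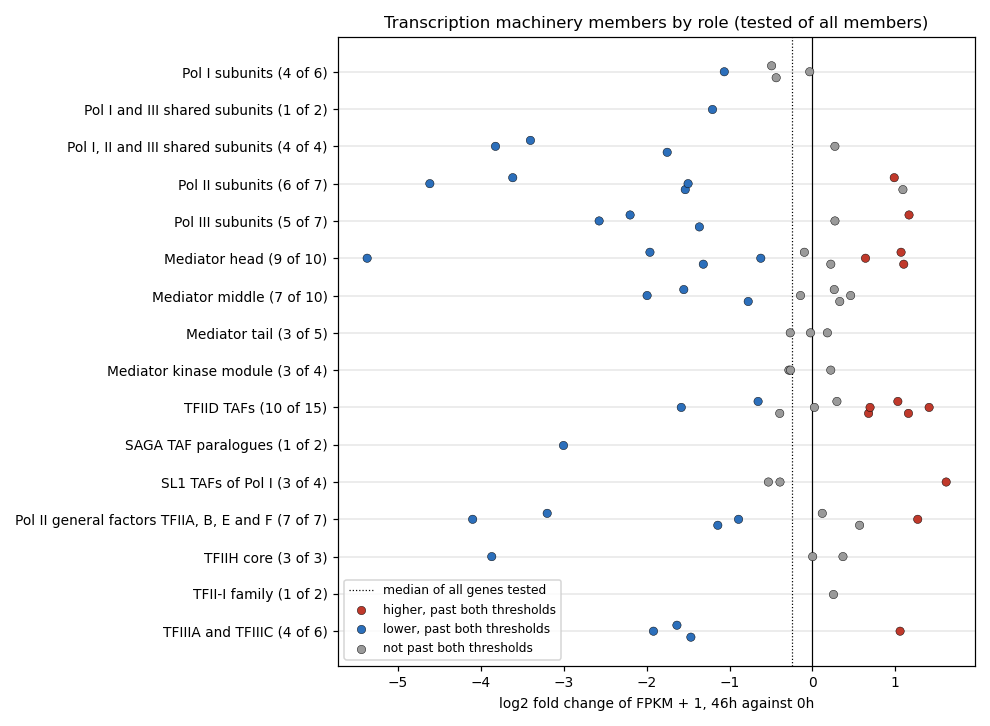
Log2 fold change of FPKM + 1 at 46h against 0h for each of the 71 members tested, one row per role with the number tested of all members in brackets. Red and blue points passed both thresholds, grey points did not, and the dotted line is the median of all genes tested (-0.25). The TFIID TAFs lie from -1.58 to 1.41 with 5 of 10 in red, and the points of the shared, Pol II, Pol III and TFIIIC rows lie mostly in blue at the left.

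In oocytes, mRNAs with a U-rich cytoplasmic polyadenylation element near their end are bound by CPEB proteins, which hold some of them with short tails and lengthen the tails of others at maturation. The last 100 bases of 1 RefSeq mRNA of each gene (Sscrofa11.1) were therefore searched, on the transcript strand only, for the letters TTTTAT or TTTTAAT, the DNA spelling of the element. All 71 members tested had a RefSeq mRNA. The letters were found in 5 of the 13 members that were higher at 46h against 0h (38.5%), in 2 of the 30 that were lower (6.67%) and in 6 of the 28 that did not pass (21.4%). Over all genes with a transcript the shares were 28.7%, 15.1% and 23.9%, and 21.3% of all 5839 transcripts held the letters. Among mRNAs that also had a polyadenylation hexamer (AATAAA or ATTAAA) in their last 50 bases, the shares were 36.4%, 9.52% and 20.8% for the members and 33.2%, 16.1% and 27.2% for all genes. The letters searched hold no G or C, and the ends of the higher genes were poorer in these bases. The median GC content of the last 100 bases was 29% for the higher members, 35% for the lower and 29.5% for those that did not pass. Over all genes it was 30%, 36% and 32%. Whether the shares differ beyond this base composition was not tested. The matches of the 7 members that passed are shown because they set the contrast between the 5 that rose and the 2 that fell. The match nearest the end is given where a transcript held more than 1. Each is shown 5′ to 3′ in the strand of the transcript, as 30 bases of its 3′ UTR with the element in capitals.
TAF9: attagtaatggtTTTTATcagcctttaagt
GTF2B: tttaattttttaTTTTAATaaagttacgga
POLR3K: ctttgaaattcgTTTTATtaaactctagtt
MED27: tttgtaacttatTTTTATaagcaataaacc
TAF5: attttgtacagtTTTTATatttttgatatc
POLR3A: ggaagggtagcaTTTTATcctggaggaaat
GTF2H5: gttttcttacctTTTTAATgccactttaat
In Sscrofa11.1 these lie at chr16:47494873-47494902 for TAF9 (minus strand), chr4:127559551-127559580 for GTF2B (plus), chr3:41574954-41574983 for POLR3K (plus), chr1:271724928-271724957 for MED27 (minus), chr14:114321565-114321594 for TAF5 (plus), chr14:80410163-80410192 for POLR3A (minus) and chr1:8928328-8928357 for GTF2H5 (minus). The first 5 belong to members that rose and the last pair to members that fell. In GTF2B and POLR3K the element overlaps the letters of a hexamer, and the POLR3K mRNA holds no hexamer in its last 50 bases. A match is a description of the letters in this window, and a member without one may hold the element elsewhere or in another isoform. This change at 46h had a Spearman rho of -0.323 with the GC content of the last 100 bases over the 71 members and of -0.252 over 5839 genes, and of 0.138 and 0.201 with transcript length. These are correlations across genes of the same libraries, and genes are not independent replicates.

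**Figure D2:**
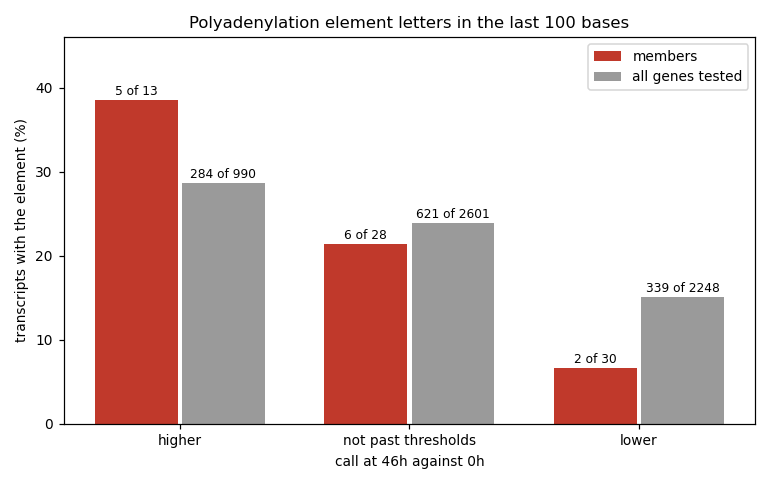
Share of transcripts, in percent, with TTTTAT or TTTTAAT in their last 100 bases, by the call at 46h against 0h, for the members (red) and for all genes tested (grey), with the numbers above the bars. The share falls from the higher to the lower genes in both, from 38.5 to 6.67% for the members and from 28.7 to 15.1% for all genes.

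Of the 7 Pol II subunits, 6 were tested, and at 46h against 0h 4 were lower and 1 higher (66.7% and 16.7%, against 39.1% and 16.8% of all genes). POLR2D and POLR2G, which form the stalk of the enzyme, were the most abundant of the group at 0h and at 3.94 FPKM or less in every 46h library. POLR2G (ENSSSCG00000025571, chr2:9004388-9008631, minus strand) was at 55.3, 45.1, 44.9 and 77.2 FPKM in the 0h libraries, at 22.9, 9.05, 13.9 and 20.7 at 22h and at 0.54, 1.24, 1.89 and 1.58 at 46h. POLR2D (ENSSSCG00000039230, chr15:59479631-59495975, plus strand) was at 43.3, 47.3, 47.2 and 61.6 FPKM, then 19.3, 8.83, 14.0 and 12.2, then 3.94, 2.23, 2.92 and 3.56. In both genes no library of a stage overlapped the next stage, and both steps passed. Between 0h and 46h the log2 fold change was -4.62 ± 0.28, adjusted p = 4.93e-09 for POLR2G and -3.62 ± 0.22, adjusted p = 4.4e-09 for POLR2D (limma, ± SE). All such fold changes are on the log2(FPKM + 1) scale, which understates the change of low genes. POLR2B, the second largest subunit, and POLR2I, a small subunit at the catalytic lobe, started low and also fell. POLR2B had means of 2.24, 1 and 0.135 FPKM at 0h, 22h and 46h (-1.5 ± 0.14, adjusted p = 4.59e-07) and POLR2I of 2.68, 0.585 and 0.243 FPKM (-1.53 ± 0.22, adjusted p = 2.33e-05). POLR2M, which binds the finished enzyme and competes with TFIIF, rose from 29.1 ± 5.88 to 58.8 ± 11.9 FPKM (SD, n = 4; 0.99 ± 0.22, adjusted p = 0.00126). POLR2C, an assembly subunit, spread widely within stages, from 7.24 to 48.9 FPKM at 22h, and its 1.09 ± 0.49, adjusted p = 0.067 at 46h against 0h did not pass, though all 46h libraries lay above those of 0h. It passed as higher with the fit of these 2 stages alone (adjusted p = 0.0124), without 22h replicate 1 (adjusted p = 0.00599), at equal quantiles (1.66) and with median-of-ratios scaling (1.41). POLR2A, the largest and catalytic subunit, was under the filter at 0.358, 0.345 and 0.270 FPKM, with overlapping stages.

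Of the subunits that Pol I, Pol II and Pol III have in common, 4 were analysed, and 3 of them fell at 46h against 0h (39.1% of all genes did), while POLR2E did not pass. POLR2H (ENSSSCG00000022507, chr13:122250087-122256201, plus strand) first rose and then fell. Its libraries were at 15.5, 19.6, 17.4 and 12.8 FPKM at 0h, at 23.1, 28.9, 25.3 and 22.6 at 22h and at 0.59, 0.79, 0.39 and 0.75 at 46h. All 22h libraries lay above those of 0h, and all 46h libraries lay below both. The rise to 22h was 0.59 ± 0.16, adjusted p = 0.0137 and the fall from 22h was -3.99 ± 0.16, adjusted p = 1.72e-10. With FPKM as deposited POLR2H was the 1 member to rise and then fall (1.83% of all genes did so). That rise was close to the fold threshold and did not pass without 0h replicate 1 (0.57), 0h replicate 4 (0.49), 22h replicate 2 (0.52) or 22h replicate 3 (0.58). With TPM (0.58) it did not pass either. POLR2F (ENSSSCG00000000116, chr5:9905359-9917721, minus strand) fell in both steps, from 20.6, 21.1, 37.5 and 49.98 FPKM at 0h, through 6.95, 6.05, 6.81 and 5.50 at 22h, to 1.77, 1.64, 0.61 and 0.98 at 46h, with no overlap between stages (-3.82 ± 0.27, adjusted p = 1.79e-08 at 46h against 0h). POLR2K fell from means of 3.04 to 0.0775 FPKM (-1.75 ± 0.29, adjusted p = 9.69e-05). POLR2E was at 22.5, 28.1 and 28.0 FPKM at the 3 stages (0.27 ± 0.24, adjusted p = 0.345), and it passed as higher at equal quantiles (0.81) and with median-of-ratios scaling (0.59).

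Pol I subunits were few and low. Of 6, 4 were tested, and 1 of them, POLR1F of the Pol I stalk, was lower at 46h against 0h (5.72, 3.89 and 1.89 FPKM at the 3 stages, -1.06 ± 0.28, adjusted p = 0.0038), and none was higher, where 39.1% of all genes were lower and 16.8% higher. Its value rests in part on 0h replicate 4, at 11.7 FPKM beside 3.14 to 4.38 in the other 0h libraries, without which the change was -0.70, and with quantile normalization its call was lost (-0.38, adjusted p = 0.145). POLR1E, an initiation subunit and the most abundant of the group, was at 9.95, 9.84 and 7.13 FPKM and did not pass (-0.44 ± 0.21, adjusted p = 0.0797), nor did POLR1B and POLR1G. POLR1D, shared by Pol I and Pol III and of their assembly core, stood far above every other polymerase subunit at 0h. POLR1D (ENSSSCG00000009310, chr11:5044274-5045921, plus strand) was at 431, 401, 557 and 679 FPKM at 0h, at 239.8, 114, 176 and 142 at 22h and at 192, 213, 251 and 219.9 at 46h. All libraries of 22h and 46h lay below those of 0h, while 22h and 46h overlapped. The fall took place in the first step (-1.64 ± 0.23, adjusted p = 0.000153), the second step did not pass (0.43 ± 0.23, adjusted p = 0.139) though it did as a rise with median-of-ratios scaling (0.75, adjusted p = 0.00752) and without 22h replicate 1 (0.62, adjusted p = 0.0313), and the steps differed (2.07 ± 0.40, adjusted p = 0.00199). Its partner POLR1C was under the filter at 0.415, 1.13 and 0.835 FPKM.

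Of the 7 Pol III subunits, 5 were tested and 4 of them are described. POLR3A, the largest and catalytic subunit, and POLR3C of the initiation trimer fell at 46h against 0h, POLR3K rose and POLR3D did not pass. POLR3A (ENSSSCG00000010327, chr14:80410143-80471740, minus strand) was at 11.3, 7.19, 12.4 and 16.9 FPKM at 0h, at 7.10, 2.91, 5.77 and 4.4 at 22h and at 2.41, 1.52, 1.23 and 1.82 at 46h. POLR3C (ENSSSCG00000006691, chr4:99480213-99494137, minus strand) was at 8.82, 6.96, 9.13 and 9.84 FPKM, then 3.63, 1.75, 4.82 and 4.21, then 0.58, 1.23, 0.32 and 0.47. For both, each stage lay wholly below the one before it, and the change at 46h against 0h was -2.20 ± 0.26, adjusted p = 4.14e-06 and -2.57 ± 0.23, adjusted p = 2.73e-07. POLR3K, the subunit for RNA cleavage and termination (ENSSSCG00000007970, chr3:41571709-41575044, plus strand), was at 163, 167, 146 and 105 FPKM at 0h, at 143, 195, 234 and 229.8 at 22h and at 264, 384, 345 and 305 at 46h. The 46h libraries all lay above both earlier stages, and the rise was 1.17 ± 0.21, adjusted p = 0.000186. With POLR3K at 325 FPKM and POLR3A at 1.75, these subunits of one enzyme differed widely in FPKM at 46h. Their RefSeq transcripts were 1340 and 7786 bases long, and the part of transcript length in this gap was not tested. POLR3D was at 6.87, 9.15 and 8.35 FPKM.

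Among the general factors of Pol II, all 7 members of TFIIA, TFIIB, TFIIE and TFIIF were tested, and at 46h against 0h 4 fell and 1 rose (57.1% and 14.3%, against 39.1% and 16.8% of all genes). Both subunits of TFIIF, which escorts the polymerase to the promoter, were lower. GTF2F1 (ENSSSCG00000013539, chr2:72687612-72698274, plus strand) was at 16.4, 12.02, 14.6 and 38.1 FPKM at 0h, at 8.97, 3.71, 10.7 and 5.09 at 22h and at 0.06, 0.12, 0.23 and 0.1 at 46h. Its 46h libraries were at 0.23 FPKM or less and below every earlier one (-4.10 ± 0.33, adjusted p = 7.85e-08). GTF2F2 fell from 4.56 ± 0.897 to 1.52 ± 0.398 FPKM (SD, n = 4; -1.14 ± 0.17, adjusted p = 4e-05), a change of -0.46 and under the fold threshold with quantile normalization. GTF2E2 of TFIIE, which brings in TFIIH, had means of 27.2, 13.1 and 1.87 FPKM (-3.20 ± 0.32, adjusted p = 7.11e-07). GTF2B, the single subunit of TFIIB (ENSSSCG00000006926, chr4:127522802-127559605, plus strand), moved the other way, with 70.4, 86.9, 60.1 and 33.4 FPKM at 0h, 52.3, 89.2, 74.3 and 88.8 at 22h and 133, 122.58, 153 and 175 at 46h. All of its 46h libraries lay above all earlier ones, while 0h and 22h overlapped, and the rise was 1.27 ± 0.26, adjusted p = 0.000759. GTF2A1L, the germ cell form of the large TFIIA subunit, was the fourth to fall (-0.89 ± 0.22, adjusted p = 0.00236), a call lost with median-of-ratios scaling (-0.57) and quantile normalization (-0.35), while GTF2A1 was 0.57 ± 0.16, adjusted p = 0.00528, under the fold threshold. GTF2A2, the small subunit of TFIIA and the most abundant general factor, was at 398, 521 and 433 FPKM and passed in no comparison. Of the 3 TFIIH core members, GTF2H5 fell from 29.7 ± 20.7 to 9.87 ± 4.71 and 0.808 ± 0.412 FPKM (SD, n = 4; -3.87 ± 0.40, adjusted p = 1.15e-06 at 46h against 0h). GTF2H1 was at 1.72, 1.19 and 1.69 FPKM and GTF2H3 at 1.73, 1.5 and 2.34 FPKM, and neither passed in any comparison with all libraries as deposited. At 46h against 0h GTF2H3 passed as higher without 0h replicate 4 (0.65 in place of 0.37, limma, adjusted p = 0.00422) and with median-of-ratios scaling (0.60). Both passed as higher there at equal quantiles (0.66 for GTF2H1 and 1.09 for GTF2H3). GTF2I of the TFII-I family was at 12, 13.4 and 14.5 FPKM and did not pass.

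The TFIID TAFs surround TBP in the complex that recognises promoters. Of 15 members 10 were tested, and none passed with limma at 22h against 0h (7.84% of all genes were higher and 18.9% lower), where TAF5 was higher with an adjusted p of 0.0192 and a change of 0.56, under the fold threshold. It did pass there with a pseudocount of 0.1 (0.62), quantile normalization (0.73), TPM without the mitochondrially encoded genes (0.66) and without 0h replicate 4 (0.64), and it was the 1 TFIID member with an unadjusted p under 0.05. At 46h against 22h 4 were higher and 1 lower (9.87% and 32.6% of all genes), and at 46h against 0h 5 were higher and 2 lower (16.8% and 39.1%), and the difference of these shares from those of other genes was not tested. The median of their log2 fold changes over the whole interval was 0.49 as deposited and between 0.39 and 1 under the other scalings, while the median of all genes moved between -0.35 and 0.37. TAF9, a histone-fold subunit that also serves SAGA (ENSSSCG00000038615, chr16:47494841-47499568, minus strand), was the most abundant TAF of TFIID. It was at 365, 447, 304 and 179 FPKM at 0h, at 275, 422, 268 and 345 at 22h and at 893, 728, 781 and 882 at 46h. The early stages overlapped and every 46h library was higher (1.41 ± 0.25, adjusted p = 0.000183 at 46h against 0h). TAF12, another histone-fold subunit (ENSSSCG00000027530, chr6:85618679-85643087, minus strand), varied little within stages, with 95.1, 93.9, 82.1 and 93.2 FPKM at 0h, 83.7, 109.7, 103 and 108 at 22h and 205, 199, 205 and 209 at 46h. It also rose only after 22h, by 1.02 ± 0.14, adjusted p = 3.56e-05, and its first step did not pass (0.14 ± 0.14, adjusted p = 0.456). TAF13, also a histone-fold subunit, was at 21.6, 21.6 and 45.2 FPKM (1.03 ± 0.18, adjusted p = 0.0002 at 46h against 0h). TAF9B, the paralogue of TAF9, was at 18.7, 17.9 and 30.6 FPKM (0.68 ± 0.15, adjusted p = 0.000967), and its change of 0.58 with TPM was under the fold threshold. TAF5, a scaffold subunit, was at 7.04, 10.8 and 12.2 FPKM (0.70 ± 0.17, adjusted p = 0.00216), and without 46h replicate 1 its change of 0.58 was under the fold threshold.

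TAF7 and TAF8 were the TFIID members that fell. TAF7, which binds TAF1 and holds its activity in check (ENSSSCG00000028168, chr2:142949271-142952611, minus strand), was at 45.4, 35.4, 33.5 and 30.2 FPKM at 0h, at 31.5, 28.4, 39.6 and 33.4 at 22h and at 9.57, 11.9, 12.5 and 11.3 at 46h. The first stages overlapped and all 46h libraries were lower (-1.47 ± 0.17, adjusted p = 5.4e-06 at 46h against 22h). TAF8 was at 3.41, 2.02 and 1.61 FPKM (-0.66 ± 0.25, adjusted p = 0.0353 at 46h against 0h), a call that was lost without 0h replicate 4 (-0.36) and without replicate 1 (-0.58), 2 (-0.68) or 4 (-0.66) of 46h, and its change was 0.0207 with quantile normalization. TAF11, TAF3 and TAF4B did not pass with FPKM as deposited. At 46h against 22h TAF11 was higher by 0.48 (limma, adjusted p = 0.0131), under the fold threshold, and all 46h libraries lay above those of 22h. It passed there with median-of-ratios scaling (0.80) and at equal quantiles (0.80). At 46h against 0h TAF3 passed as higher at equal quantiles (0.72). TAF5L, the counterpart of TAF5 in the coactivator SAGA (ENSSSCG00000010187, chr14:60254502-60286368, plus strand), was found up to 22h and was low at 46h, with 7.09, 4.95, 14.1 and 32.5 FPKM at 0h, 25.2, 14.6, 13.1 and 8.99 at 22h and 0.61, 0.3, 0.74 and 0.58 at 46h. The first stages overlapped, the 46h libraries lay below both (-3.32 ± 0.43, adjusted p = 1.97e-05 at 46h against 22h), and 0h replicate 4 was the highest of the series. TAF1A belongs to SL1, the promoter factor of Pol I, and had the largest rise of all members tested on the log2(FPKM + 1) scale. TAF1A (ENSSSCG00000010833, chr10:11340637-11362432, minus strand) was at 154, 157, 124 and 49.1 FPKM at 0h, at 85.9, 207, 200.3 and 251 at 22h and at 311, 328, 391 and 336 at 46h. Its 46h libraries lay above all earlier ones (1.62 ± 0.36, adjusted p = 0.00142 at 46h against 0h), and the call at 46h against 22h (0.97) was lost without 0h replicate 3, 22h replicate 1 or 3 or any 46h replicate, with values of 0.64 (without 22h replicate 1) to 1.04. That call was also lost with TPM (0.88, limma, adjusted p = 0.0747), the replicate number as a block (adjusted p = 0.0589) and no filter on low values (adjusted p = 0.114). The other SL1 TAFs tested, TAF1B and TAF1D, were at 11.5, 10.5 and 8.61 FPKM and at 4.85, 5.50 and 3.07 FPKM, and neither passed at 46h against 0h.

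**Figure D3:**
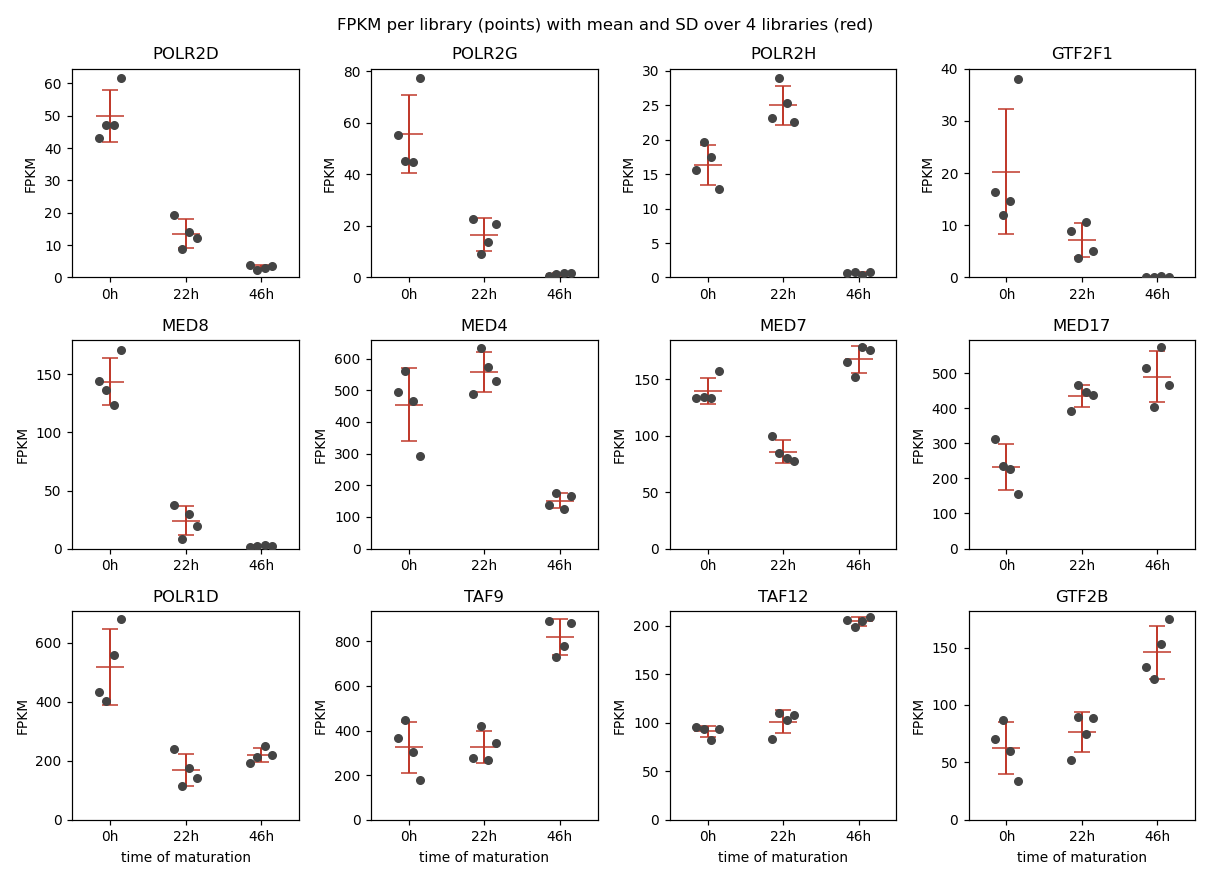
FPKM per library (points, in the order of replicates 1 to 4) with mean and SD over 4 libraries (red) at 0h, 22h and 46h for 12 members, each panel with its own axis from 0. POLR2D, POLR2G, GTF2F1 and MED8 step down at both intervals, POLR2H and MED4 drop only after 22h, MED7 dips at 22h, and TAF9, TAF12 and GTF2B are highest in all 46h libraries.

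Mediator was the largest of the complexes. The head, which touches Pol II, had 9 of 10 members tested, of which 3 were higher and 4 lower at 46h against 0h (33.3% and 44.4%, the latter near the 39.1% of all genes that were lower, with 16.8% higher). MED8 (ENSSSCG00000003943, chr6:167861349-167868560, plus strand) had the steepest fall of all members tested on the log2(FPKM + 1) scale. It was at 144, 136, 124 and 171 FPKM at 0h, at 37.3, 8.68, 29.8 and 19.7 at 22h and at 1.78, 2.66, 3.34 and 2.28 at 46h. No library overlapped a neighbouring stage, and the steps were of about equal size (-2.71 ± 0.33, adjusted p = 5.84e-05, then -2.67 ± 0.33, adjusted p = 1.28e-05). MED17, the scaffold of the head (ENSSSCG00000014949, chr9:26192206-26214177, plus strand), went up as MED8 went down, from 312, 234, 228 and 155 FPKM at 0h, through 391, 467, 445 and 438 at 22h, to 513, 403, 574 and 466 at 46h. Its first step passed (0.94 ± 0.20, adjusted p = 0.00276) and the second did not (0.16 ± 0.20, adjusted p = 0.533), and the difference of the steps did not pass either (-0.79 ± 0.34, adjusted p = 0.124). MED6, the most abundant subunit of the head at 0h and 22h, was at 419.7, 518 and 272 FPKM and fell after 22h (-0.92 ± 0.16, adjusted p = 0.000312). Against 0h its fall was -0.62, near the threshold, and it was -0.56 without 0h replicate 2 and -0.57 without 46h replicate 2, and -0.29, -0.46 and -0.54 with median-of-ratios scaling, quantile normalization and TPM without the mitochondrially encoded genes. MED11 was at 32.2, 19.5 and 7.54 FPKM (-1.96 ± 0.37, adjusted p = 0.000302 at 46h against 0h) and MED28 at 62.3, 65.7 and 23.4 FPKM (-1.32 ± 0.25, adjusted p = 0.000301). MED27 was at 9.73, 12.3 and 22.5 FPKM (1.07 ± 0.30, adjusted p = 0.00575) and MED30 at 93.1, 151 and 146 FPKM (0.64 ± 0.16, adjusted p = 0.00252), where the changes of 0.57 without 46h replicate 3 and of 0.54 with TPM were under the threshold. MED18 and MED20 did not pass. The median of the head was -0.10 as deposited, 0.20 under median-of-ratios scaling and 0.56 at equal quantiles, and its members had no common direction.

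In the middle module of Mediator, with 7 of 10 members tested, 3 fell and none rose at 46h against 0h (limma, 1 higher at an unadjusted p under 0.05). The 42.9% lower is near the 39.1% of all genes, and the median of -0.14 was 0.16 under median-of-ratios scaling and 0.45 at equal quantiles. MED4 (ENSSSCG00000035098, chr11:19551858-19566915, plus strand) was the most abundant of the module at 0h and 22h, with 495, 563, 467 and 294 FPKM at 0h, 488, 635, 575 and 531 at 22h and 138, 174, 127 and 167 at 46h. Its first step did not pass (0.33 ± 0.20, adjusted p = 0.234), and in the second it fell below all earlier libraries (-1.88 ± 0.20, adjusted p = 3.18e-06). MED7, another subunit of the module (ENSSSCG00000017058, chr16:66114596-66121096, plus strand), was at 133, 135, 134 and 157 FPKM at 0h, 100.3, 84.8, 80.7 and 77.4 at 22h and 166, 152, 179 and 176 at 46h. The 22h libraries all lay below those of 0h and of 46h, so that MED7 fell (-0.70 ± 0.14, adjusted p = 0.00219) and rose again (0.97 ± 0.14, adjusted p = 6.97e-05), the 1 member to do so with FPKM as deposited (0.627% of all genes). At 46h it was not past the thresholds against 0h (0.26 ± 0.14, adjusted p = 0.12), but it was higher with median-of-ratios scaling (0.59, adjusted p = 0.00254). MED31 fell from 6.07 ± 3.87 to 0.525 ± 0.0870 FPKM (SD, n = 4; -1.99 ± 0.35, adjusted p = 0.000196) and MED19 from 1.91 ± 0.748 to 0.688 ± 0.349 (-0.77 ± 0.20, adjusted p = 0.00371), both at low levels, and the change of MED19 was -0.05 with quantile normalization. MED14, which links the modules, rose in the first step (34.9, 54.2 and 47.5 FPKM, 0.66 ± 0.21, adjusted p = 0.0276), a call lost without replicate 1 (0.67) or 2 (0.45) of 0h or replicate 1 (0.59) or 2 (0.64) of 22h. MED1, the docking site of nuclear receptors, was at 16.6, 22.8 and 18.8 FPKM and did not pass, nor did MED21.

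With FPKM as deposited, the tail and the kinase module of Mediator had no member past the thresholds of limma at 46h against 0h. There 1 of their 6 members tested was lower at an unadjusted p under 0.05 (MED12L) and none higher. Of all 7013 genes, 55.9% passed the thresholds, and 3033 were lower and 1598 higher at an unadjusted p under 0.05. MED15, a tail subunit that activators bind, was at 12.9, 7.01, 20.6 and 49.9 FPKM at 0h, at 54.2, 35.6, 46.7 and 34.8 at 22h and at 14.4, 16.6, 21.9 and 8.40 at 46h. The 0h libraries spread over nearly the whole range of the others, the step to 22h did not pass (1.2 ± 0.44, adjusted p = 0.05 after rounding), and the step from 22h was -1.47 ± 0.44, adjusted p = 0.0127. The step to 22h passed with TPM (adjusted p = 0.0467), TPM without the mitochondrially encoded genes (0.0315), median-of-ratios scaling (0.028), equal quantiles (0.0249), a minimum mean of 5 FPKM (0.0453), limma without a trend (0.0498) and without 46h replicate 4 (0.0497), and the step from 22h did not pass at equal quantiles (-1.02). Without 0h replicate 4, at 49.9 FPKM, the first step passed (1.69, adjusted p = 0.00187), and the change at 46h against 0h was 0.22 in place of -0.27, passing neither way. MED23 and MED24 of the tail were at 2.46, 3.71 and 2.91 FPKM and at 1.09, 1.48 and 1.05 FPKM. MED12L, MED13 and MED13L of the kinase module, which can hold Mediator off the polymerase, were between 1.05 and 2.36 FPKM in every stage mean and passed in no comparison with FPKM as deposited. At equal quantiles MED13 passed as higher at 46h against 0h (0.91), as did MED23 (0.87) and MED24 (0.69) of the tail.

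Of the 6 members of TFIIIA and TFIIIC, which place Pol III on the 5S and tRNA genes, 4 were tested, and 3 fell and 1 rose at 46h against 0h, where 39.1% of all genes were lower and 16.8% higher. GTF3C6, the most abundant, was at 19.7, 21.9, 15.3 and 14.0 FPKM at 0h, 10.9, 11.5, 10.95 and 10.3 at 22h and 5.06, 3.96, 5.55 and 5.34 at 46h. Its stages did not overlap (-1.63 ± 0.17, adjusted p = 8.51e-07 at 46h against 0h). GTF3C2 was at 11.8, 9.17 and 2.32 FPKM (-1.92 ± 0.20, adjusted p = 1.13e-06) and GTF3A, the 5S rRNA gene factor, at 2.33, 1.47 and 0.205 FPKM (-1.47 ± 0.13, adjusted p = 1.58e-07). GTF3C3 rose from 0.84, 0.76, 0.74 and 0.35 FPKM at 0h, through 1.18, 1.02, 0.91 and 1.09 at 22h, to 2.46, 2.39, 2.54 and 2.45 at 46h. The rise was small in FPKM, yet no library of a stage overlapped the next (1.06 ± 0.14, adjusted p = 1.06e-05).

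**Figure D4:**
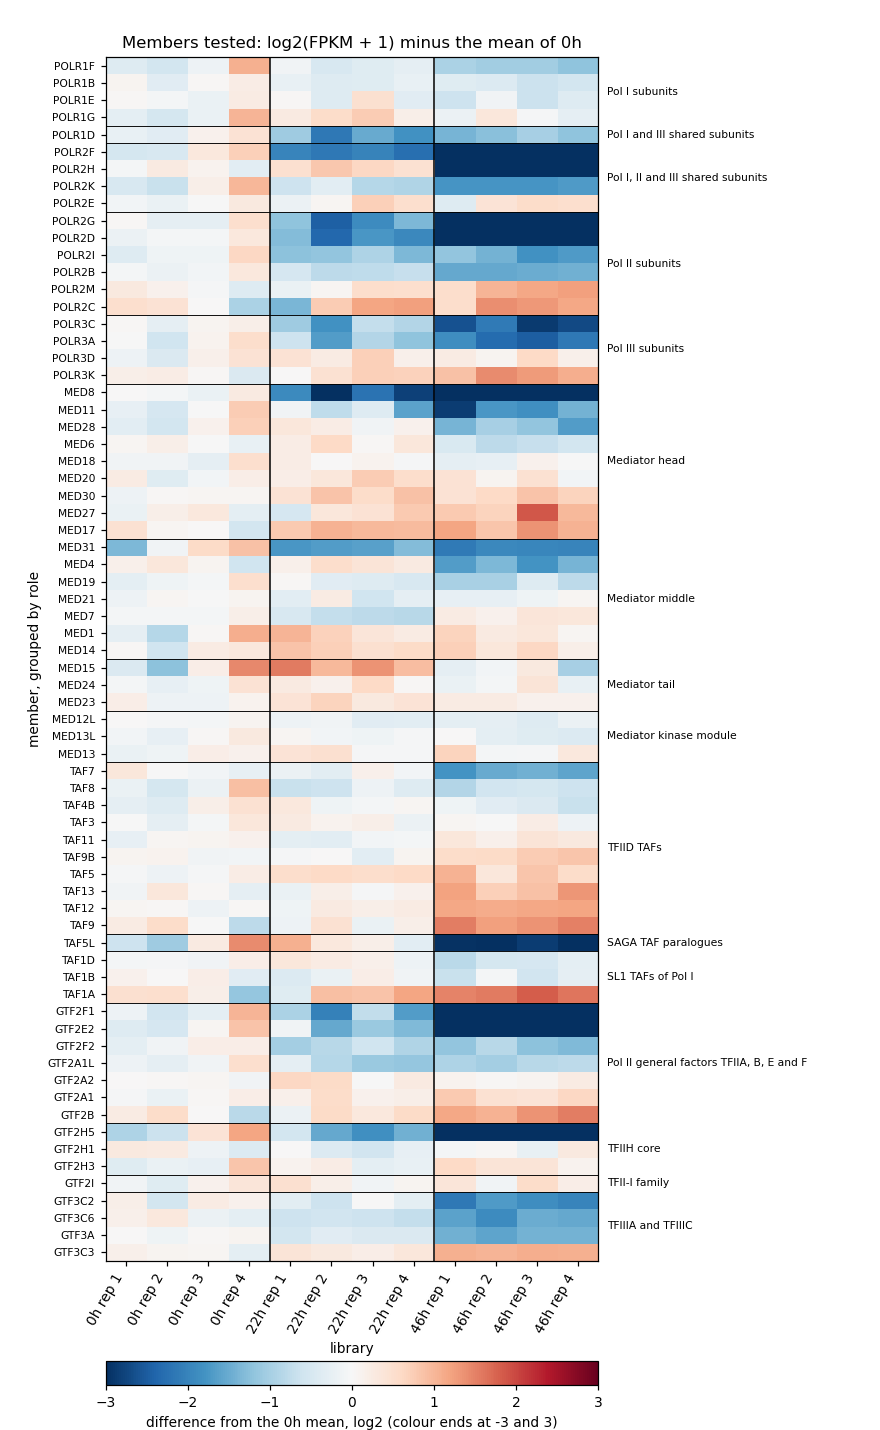
Difference of log2(FPKM + 1) from the 0h mean in each of the 12 libraries (columns) for 70 of the 71 members tested (rows, grouped by role and ordered by their change at 46h), blue for lower and red for higher, with colours ending at -3 and 3. Replicate 4 of 0h is the reddest of the 0h columns, and the dark blue rows at 46h include MED8, POLR2G, GTF2F1, GTF2H5, POLR2F, POLR2D, POLR2H, GTF2E2 and TAF5L.

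The time of change differed between members, which was tested by the difference of the second step (46h against 22h) and the first (22h against 0h). It passed for 14 members, 6 higher and 8 lower in the second step (8.45% and 11.3%), where 4.73% and 16.2% of all genes were called, 21.0% in all. The 6 were POLR1D, MED7, TAF9, TAF9B, TAF12 and TAF13, with POLR1D and MED7 falling first. The 8 were POLR2H (-4.58 ± 0.28, adjusted p = 7.61e-08), TAF5L (-3.63 ± 0.74, adjusted p = 0.00308), MED15, MED4 (-2.20 ± 0.35, adjusted p = 0.000407), MED28, TAF7 (-1.36 ± 0.29, adjusted p = 0.00393), GTF3C2 and MED6. The TAF calls were near the threshold (0.0485 for TAF9, 0.0344 for TAF9B and 0.0365 for TAF13 as adjusted p) and were sensitive to single libraries. With the replicate number as a block in limma, TAF9 (adjusted p = 0.0695), TAF9B (0.0677) and TAF13 (0.0745) were lost. TAF9 was lost without any library but 0h replicate 4 and 22h replicate 2 (1.10 to 1.34), TAF9B without replicate 1 or 2 of 0h, 1, 2 or 3 of 22h or 3 or 4 of 46h (0.64 to 0.86), and TAF13 without replicate 2 or 3 of 0h, 1, 3 or 4 of 22h or 1 or 4 of 46h (0.86 to 1.09). TAF12 was lost without 22h replicate 1 (0.70), GTF3C2 without 22h replicate 3 (-1.09), and MED15 without replicate 1 (-2.44) or 3 (-2.58) of 22h. MED6 was lost with median-of-ratios scaling (-0.90, limma, adjusted p = 0.0793). Without 0h replicate 4 the members lower in the second step numbered 18 in place of 8. The share higher among the members called was 42.9% as deposited, 60% with quantile normalization, 53.3% with median-of-ratios scaling, 20% with TPM and 18.8% with TPM without the mitochondrially encoded genes. By their calls with FPKM as deposited, 11 members fell in both steps (15.5%, against 11.6% of all genes). In the second step 12 fell without passing in the first (16.9% and 19.1%), and 6 fell in the first without passing in the second (8.45% and 6.59%). No member passed as higher in both steps (0.955% of all genes did). In the first step 3 rose without passing in the second (MED14, MED17 and MED30, 4.23% and 5.06%), and 10 rose in the second without passing in the first (14.1% and 8.28%). Of these 10, POLR3K (0.61, adjusted p = 0.0304) and TAF1A (0.98, adjusted p = 0.0352) passed as higher already at 22h against 0h without 22h replicate 1, and their second step then did not pass. A step that did not pass need not differ from one that did, and the difference of the steps passed only for the 14 members named above. GTF3A, counted with the 12, was also lower at 22h against 0h (-0.43, limma, adjusted p = 0.0175), under the fold threshold. The 2 steps share the 22h libraries, so that an error at 22h moves them in opposite directions.

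**Figure D5:**
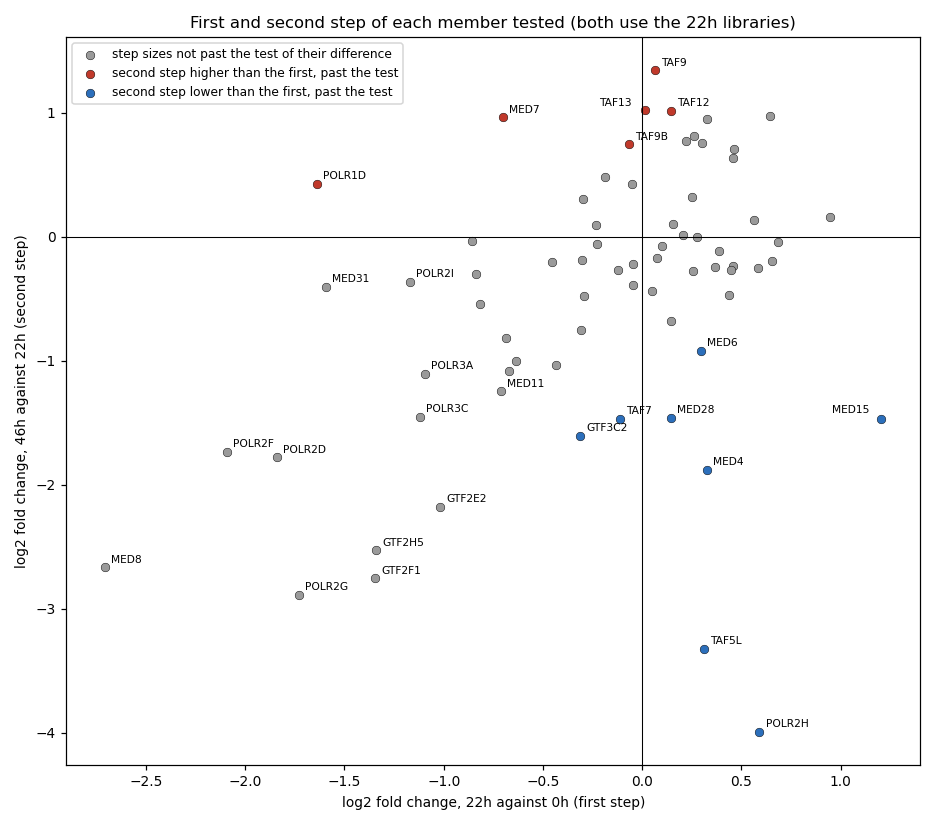
Log2 fold change at 22h against 0h (horizontal) and at 46h against 22h (vertical) of the 71 members tested, with red and blue where the difference of the steps passed the test. MED8, POLR2D and POLR2F fell in both steps at the lower left, POLR2H and TAF5L fell from 22h at the bottom, and TAF9, TAF12 and TAF13 rose from 22h at the top. Both axes use the 22h libraries.

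Several calls at 22h against 0h were sensitive to single libraries. GTF2E2 (-1.02) was lost without 0h replicate 3 (-1) or 4 (-0.74) or without 22h replicate 2 (-0.85), 3 (-0.99) or 4 (-0.92). GTF2H5 (-1.34) was lost without 0h replicate 3 (-1.21) or 22h replicate 2 (-1.27), 3 (-1.18) or 4 (-1.31). POLR2B (-0.69) was lost without 0h replicate 4 (-0.58) and GTF3C6 (-0.63) without 0h replicate 1 (-0.58) or 2 (-0.53). GTF3C6 was also lost with quantile normalization (-0.49) and with TPM without the mitochondrially encoded genes (-0.57). The number of members higher at 22h was 2 without 0h replicate 1 or 22h replicate 2 and 7 without 0h replicate 4. At 46h against 22h, POLR3K (0.70) was lost without 22h replicate 1 (0.55), MED27 (0.81) without 22h replicate 1 (0.55) or 2 (0.83) or 46h replicate 3 (0.54) or 4 (0.84), and POLR1F (-0.76) without replicate 1, 3 or 4 of 22h or any replicate of 46h (-0.80 to -0.69).

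The changes within 5 pairs of paralogues were compared as the difference of their log2(FPKM + 1) within each library, which does not depend on the scaling of that library by a factor at high levels. GTF2A1L had 45.2, 41.8, 47.0 and 71.9 FPKM at 0h, 41.3, 27.3, 22.6 and 21.9 at 22h and 26.2, 24.3, 27.7 and 28.6 at 46h. GTF2A1, the general form of this subunit, had 1.41, 1.15, 1.51 and 1.80 FPKM, then 1.71, 2.62, 1.67 and 1.77, then 3.22, 2.36, 2.29 and 2.79. GTF2A1L was the more abundant form in all 12 libraries, by 4.38 ± 0.21 log2 units at 0h and 2.92 ± 0.18 at 46h (SD, n = 4). The excess was smaller at 46h by 1.46, and the stages did not overlap (two-sided exact permutation test, p = 0.0286, the smallest that 4 against 4 libraries can give, adjusted p = 0.0357 over the 5 pairs). TAF9B stood 3.97 ± 0.48 below TAF9 at 0h and 4.70 ± 0.18 below at 46h, a change of -0.73 that was -0.25 with quantile normalization (exact permutation test, adjusted p = 0.286). MED13L against MED13 changed by -0.49 and MED12L against MED12 by -0.29. With FPKM as deposited these changes and that of TAF9B each had an exact p of 0.0286 and an adjusted p of 0.0357, and MED12 itself was at 0.05 FPKM or less in every library. TAF4B, the germ cell form, was above TAF4 by 1.69 ± 0.29 at 0h and 1.59 ± 0.28 at 46h, a shift smaller than the spread of the libraries (exact permutation test, p = 0.6).

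The 24 members with a mean under 1 FPKM were each compared by the exact two-sided permutation test, 72 tests without adjustment, in which 4 against 4 libraries allow no p under 0.0286. At 46h against 0h, 1 was higher and 9 lower at an unadjusted p under 0.05, as were 0.97% and 14.4% of all 10620 genes under the filter and above 0 in a library. These genes were lower in level, with a median of 0.0483 FPKM against 0.154 for the members, so that the shares are not compared. The higher one was TAF7L, the germ cell paralogue of TAF7, with 0.58, 0.41, 0.7 and 0.94 FPKM at 0h and 0.96, 1.66, 1.58 and 2.08 at 46h. This p of TAF7L is unadjusted, and its highest 0h library and lowest 46h library were close (0.94 and 0.96 FPKM). TAF7, which fell with limma, remained the more abundant at 46h (11.3 against 1.57 FPKM). The lower ones were POLR1A, POLR3E, MED9, MED10, MED16, MED26, TAF4, TAF6L and GTF2IRD1. MED10 went from 0.99, 1.35, 1.25 and 2.38 FPKM at 0h, through 0.64, 0.42, 0.42 and 0.26 at 22h, to 0, 0, 0.12 and 0 at 46h, and TAF6L, a SAGA subunit like TAF5L, from 1.29, 1.34, 1.27 and 0.84 to 0.09, 0.11, 0.08 and 0.13. At 46h against 22h 7 were lower (GTF3C1, GTF3C4, MED10, POLR1A, POLR3E, TAF4 and TAF6L) and none higher (8.41% and 0.612% of these genes), and at 22h against 0h MED10 was the 1 member under 0.05, as lower (4.6% lower and 0.725% higher). The remaining ones, POLR1C, POLR1H, POLR2A, POLR3F, MED12, MED22, MED25, TAF1C, TAF2, TAF6, TAF10 and TAF15, were under an unadjusted 0.05 in no comparison. TAF10, MED25 and POLR1H were at 0 in all 4 libraries of 0h, and no member was at 0 in all 12. The GC content of the transcript was 66.9% for TAF10, 67.0% for MED25 and 59.8% for POLR2A, where the median of the members tested was 46.5%. TAF2 (40.5%) and POLR3F (43.5%) were low in level without a high GC content. Whether GC content lowered the recovery of these members was not tested, and a low FPKM need not mean that the mRNA was absent.

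For context, 62 other genes of transcription were listed, of which 61 had an identifier and 38 were tested. At 46h against 0h 2 were higher and 12 lower (5.26% and 31.6%, against 16.8% and 39.1% of all genes), at 46h against 22h 2 and 12 (9.87% and 32.6% of all genes), and at 22h against 0h 2 and 6 (5.26% and 15.8%, against 7.84% and 18.9%). TBPL1, a relative of TBP, was at 808, 1204 and 2189 FPKM (1.56 ± 0.30, adjusted p = 0.000448 at 46h against 0h), and DR1, which represses TBP, was at 190.1, 296 and 349 FPKM (0.88 ± 0.18, adjusted p = 0.000614). DRAP1, the partner of DR1, fell, at 19.5, 29.2 and 1.995 FPKM (-3.03 ± 0.38, adjusted p = 7.72e-06). TBPL2, the oocyte form of TBP, fell from a lower level, at 9.15, 5.80 and 2.84 FPKM (-1.38 ± 0.21, adjusted p = 4.64e-05). CDK7, the kinase of TFIIH, was at 189, 34.7 and 7.86 FPKM (-4.33 ± 0.31, adjusted p = 1.98e-08). Its partners in the kinase did not pass at 46h against 0h, with MNAT1 at 42.9, 66.5 and 37.0 FPKM (-0.20 ± 0.19, adjusted p = 0.375), higher at 22h against 0h (0.61 ± 0.19, adjusted p = 0.0269), and CCNH at 9.74, 5.67 and 6.87 FPKM (-0.50 ± 0.25, adjusted p = 0.0981), lower at 22h against 0h (-0.70 ± 0.25, adjusted p = 0.0488). GPN3, which serves the import of Pol II into the nucleus, was at 93.5, 122 and 2.83 FPKM (-4.59 ± 0.25, adjusted p = 1.33e-09), and like POLR2H it was low only at 46h. CDK8 of the Mediator kinase module, whose MED members did not pass with FPKM as deposited, was at 4.73, 5.58 and 0.430 FPKM (-1.80 ± 0.37, adjusted p = 0.000674). CCNC, the cyclin of that module, did not pass, at 4.04, 4.16 and 5.38 FPKM (0.33 ± 0.21, limma, adjusted p = 0.187 at 46h against 0h).

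Reads can be shared between overlapping genes, and whether the authors' counting used strand is not given in the sources used here. In the RefSeq annotation TAF9 shares 14.2% of its exon bases with AK6 on the same strand, POLR1D 16% with LOC106505238, TAF1A 7.2% with HHIPL2 and TAF6L 27.2% with TMEM179B. On the opposite strand POLR1C shares 48.0% with XPO5, GTF3A 21.8% with MTIF3, POLR3C 21.6% with RNF115, TAF8 11.4% with CCND3 and POLR2C 10.1% with DOK4. The levels of these members can include reads of the genes they overlap, in an amount that was not measured.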

How the data were processed

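Denuded porcine oocytes from in vitro maturation were sampled at 0h, 22h and 46h, in 4 libraries of 20 oocytes each. Per the methods and the submitters' processing notes, the authors primed cDNA with oligo-dT (SMART-Seq2), checked and trimmed the reads with FastQC and Trim Galore, aligned them with STAR to the pig genome and computed FPKM per Ensembl gene with RSEM, and the FPKM are used here as deposited. Read numbers are not given, so the depth is unknown. FPKM is relative to the library: a few abundant genes shift all others.

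The members and gene lists were chosen with earlier results of these data known. Of 31908 identifiers, 15029 were named from reference tables and 172 more from the study's gene table, none of them a member. Log2(FPKM + 1) was fitted for the 7013 genes averaging 1 FPKM or more with limma 3.58.1 (R 4.3.3; stage means of all 12 libraries, eBayes with trend), with Benjamini-Hochberg adjustment over all genes tested. A call needed an adjusted p under 0.05 and a fold change over 1.5, and SE is the moderated standard error. The fit was tested on simulated data. Members under the filter and paralogue differences were compared by exact two-sided permutation tests (Python 3.11.15, scipy 1.17.1). Named members were, in each role group, up to 3 with the largest rise and up to 3 with the largest fall at 46h against 0h among those called, the most abundant one, those called in opposite directions in the steps, up to 3 whose steps differed, and the paralogue pairs, and others are named to account for the members. The values of 1 member are not reported here, and it is left in the counts. The alternatives were a pseudocount of 0.1, no filter or one at 5 FPKM, 4 other scalings (TPM, TPM after dropping the mitochondrially encoded genes, quantile normalization and median-of-ratios), a fit of the stages compared only, eBayes without trend, fold changes over 2 or adjusted p alone, the replicate number as a block, and each library left out. Gene positions and transcripts came from RefSeq (Sscrofa11.1), matched by symbol, and no coordinates were taken from the authors' files.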

Additional observations from a re-analysis of the deposited data

Results flagged for a closer look

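Each of the 55 named members was checked at each stage for a library that lay far from the other 3 of its stage on the log2(FPKM + 1) scale (165 checks). The check compares the gap to the nearest library with the whole range, and chance marks about 1 in 20 groups, so that the 7 libraries found are not more than chance gives. GTF2A1 was at 2.62 FPKM in 22h replicate 2, where the others were at 1.67 to 1.77. GTF3C2 was at 7.53 FPKM in 0h replicate 2, below 12.64 to 13.68 in the others. MED7 was at 157.34 FPKM in 0h replicate 4, above 133.19 to 134.83. POLR2E was at 16.75 FPKM in 46h replicate 1, below 29.84 to 33.31. POLR2K was at 0.12 FPKM in 46h replicate 4 and at 0.06 to 0.07 in the others. TAF12 was at 82.09 FPKM in 0h replicate 3, below 93.23 to 95.1. TAF15 was at 0.22 FPKM in 0h replicate 4 and at 0.06 to 0.07 in the others. The libraries marked are spread over 6 of the 12, with 0h replicate 4 marked for MED7 and TAF15.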

How the results depend on the processing

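Of the calls, 15 of 22 at 22h against 0h, 24 of 35 at 46h against 22h, 34 of 43 at 46h against 0h and 7 of 14 for the difference of the steps were kept in every alternative in which the member was tested, a fold change over 2 not counted. At 22h against 0h the members called higher were 4, with 8 under quantile normalization, 0 with a fold change over 2 (6 with limma's adjusted p alone) and 2 to 7 with a library left out, and those lower were 15 to 18 with a library left out. At 46h against 22h 11 were higher, with 3 at a fold change over 2 and 9 to 11 with a library left out, and 23 to 24 were lower. At 46h against 0h 13 were higher, with 20 under median-of-ratios scaling, 29 under quantile normalization and 12 to 16 with a library left out. The 30 lower were 19 with a mean of at least 5 FPKM, where fewer members were tested, and 28 to 30 with a library left out. In the difference of the steps the 6 higher were 12 under quantile normalization, 3 with TPM, with or without the mitochondrially encoded genes, and 3 to 6 with a library left out, and the 8 lower were 13 with TPM without these genes and 7 to 18 with a library left out, 18 of them without 0h replicate 4. Under quantile normalization, the log2 fold changes of 13 of the 71 members at 46h against 0h changed sign, of which TAF8 (0.0207) had been called as lower, and POLR1G (0.66) and MED24 (0.69) then passed as higher. The cause was not tested. Besides TAF8, the calls at 46h against 0h that were lost under another scaling were GTF2A1L (-0.57 with median-of-ratios scaling, -0.35 with quantile normalization), MED6 (-0.29 and -0.46), GTF2F2 (-0.46), POLR1F (-0.38) and MED19 (-0.05) with quantile normalization, TAF9B (0.58 with TPM) and MED30 (0.54 with TPM). Members not called at 46h against 0h that passed as higher with median-of-ratios scaling were GTF2A1, GTF2H3, MED7, MED14, POLR2C, POLR2E and TAF11, and POLR1B (-0.61) and TAF1D (-0.64) passed as lower with TPM. At 46h against 22h, quantile normalization ended the lower calls of POLR2B (-0.14), POLR2K (-0.43), POLR1F (-0.24), GTF3A (-0.41) and GTF3C6 (-0.50). Those of MED11 (-0.73), MED15 (-1.02) and TAF1D (-0.15) were also lost there.

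With the replicate number as a block, 3 members were higher in the difference of the steps in place of 6, and no other count of members called moved by over 1.5 times. The numbers name libraries without pairing them: deviations from the stage means correlated at -0.466 to 0.381 between libraries of the same number and at -0.428 to 0.532 between others. As a block in the paralogue differences the numbers allow 4 differences, whose exact sign-flip test cannot reach 0.05, so that GTF2A1L (-1.46), TAF9B (-0.73), MED13L (-0.49) and MED12L (-0.29) against their paralogues had an adjusted p of 0.156. Nor can 4 libraries against 3 reach 0.05, and with a library left out these 4 differences were -1.53 to -1.35, -0.87 to -0.50, -0.57 to -0.40 and -0.31 to -0.25, while TAF4B against TAF4 was -0.20 to 0.02. TAF9B against TAF9 was -0.25 with quantile normalization (exact test, adjusted p = 0.286), and MED12L against MED12 was -0.47 with a pseudocount of 0.1 (adjusted p = 0.107).

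Without read numbers, a low FPKM has no counting error of its own here, and members under 1 FPKM rest on few fragments. The libraries are pools from 1 source of ovaries, and differences between animals were not measured.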
